A study of Mus musculus with 2 samples.

Results

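The carbonic anhydrase family was examined in MOS-J cells, an osteosarcoma line of the mouse, on 2 expression arrays. One array was hybridised with RNA of MOS-J cells that carry the human DKK1 gene, and the other with RNA of MOS-J cells that carry a control vector. DKK1 is a secreted antagonist of canonical Wnt signalling. Both vectors are lentiviral by their labels, but the protocol also describes transfection of a plasmid, drug selection of clones or stable lines and a later fluorescent label with sorting. The sources do not say which route led to the RNA on these arrays. The members were Car2, Car3, Car4, Car5b, Car6, Car8, Car9, Car12, Car13 and Car14, taken through every probe set annotated with 1 of these symbols alone. This gave 10 genes with 21 probe sets, of 18194 genes and 45101 probe sets in all. The members were chosen with their values on these arrays known, so every value below describes these 2 arrays and none is tested. Each group has 1 array and there is no replicate error.

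Carbonic anhydrases are zinc enzymes that interconvert CO2 and water with bicarbonate and a proton. The isoforms differ in where they act: Car2, Car3 and Car13 in the cytosol, Car5b in mitochondria, Car4, Car9, Car12 and Car14 at the outer face of the cell membrane, and Car6 as a secreted enzyme. Car8 keeps the fold but has lost the catalytic activity. In bone, Car2 supplies the protons with which osteoclasts dissolve mineral. In many tumours Car9 is induced by the hypoxia factor HIF-1, and the membrane-bound enzymes regulate the acidity around the cells.

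Car6 stands out in these arrays, and it has a further known route of expression. In the mouse, a stress-induced intracellular form of Car6 is transcribed from an internal promoter under CHOP, the product of Ddit3, and its partner C/EBP-beta, the product of Cebpb. The upstream regions of Car6 and Car9 are shown because Car6 carried the large difference and Car9 is the member best known as a hypoxia target. Both come from RefSeq, assembly GRCm38.p6, and run 5′ to 3′ on the strand of the gene from 250 bases before to 50 after its annotated start. The Car6 window is chr4:150201086-150201385 on the minus strand and the Car9 window is chr4:43506776-43507075 on the plus strand. Capitals mark the hypoxia response core, searched as ACGTG and GCGTG on both strands.
Car6: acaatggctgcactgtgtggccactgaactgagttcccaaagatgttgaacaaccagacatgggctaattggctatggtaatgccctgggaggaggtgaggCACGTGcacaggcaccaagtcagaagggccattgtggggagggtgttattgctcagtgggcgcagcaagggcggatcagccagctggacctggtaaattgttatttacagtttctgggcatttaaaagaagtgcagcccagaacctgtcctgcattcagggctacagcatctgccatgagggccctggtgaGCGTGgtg
Car9: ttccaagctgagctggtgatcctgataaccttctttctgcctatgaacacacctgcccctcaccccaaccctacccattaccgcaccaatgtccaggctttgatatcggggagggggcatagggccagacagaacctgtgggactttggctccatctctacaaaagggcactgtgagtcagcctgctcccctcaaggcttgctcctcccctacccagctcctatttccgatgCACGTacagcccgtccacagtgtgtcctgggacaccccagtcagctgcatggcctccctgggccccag
In Car9 the single match is ACGTG on the minus strand, 18 to 14 bases before the start. In Car6 ACGTG occurs on both strands of 1 overlapping palindrome, beginning 149 and ending 144 bases before the start, and GCGTG occurs 42 bases after it. ACGTG is present in 19.6% and GCGTG in 32.4% of the 32851 windows of this length in the table, so these matches are common. Of the 6 members with a window in that table (Car4, Car5b, Car6, Car9, Car12 and Car14), none holds TGCAAT, the core of a CHOP and C/EBP element, found in 8.40% of windows, or TGATGCAA, a C/EBP and ATF element, found in 0.895%. Among the same 6 windows ACGTG occurs in 4 (Car4, Car6, Car9 and Car14) and GCGTG in 2 (Car5b and Car6), so the hypoxia core is not particular to Car6 and Car9. The Car6 window lies at the annotated start of the gene, and the internal promoter was not examined.

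The values were MAS5 signals, a linear intensity per probe set. A probe set was called measured where its mean signal over both arrays reached 71.3, the median of all probe sets. Of the 21 member probe sets 8 were measured, and they belong to Car3, Car5b, Car6, Car8 and Car13. The other 5 genes, Car2, Car4, Car9, Car12 and Car14, had no measured probe set. The difference was taken as DKK1 minus control in log2(signal + 16.6) and averaged over a gene's measured probe sets, and it understates the change of dim genes. A gene was called higher or lower at a difference of 1 or more on this log2 scale, which is 2-fold, with all its measured probe sets on that side. Of the 5 measured members 1 was called lower (Car6), 1 higher (Car3) and 3 were not called. Among all 11058 measured genes 18.6% were called, 11.7% higher and 6.91% lower. The members were chosen on this contrast, so their count of 2 in 5 is not read against that share.

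**Figure D1:**
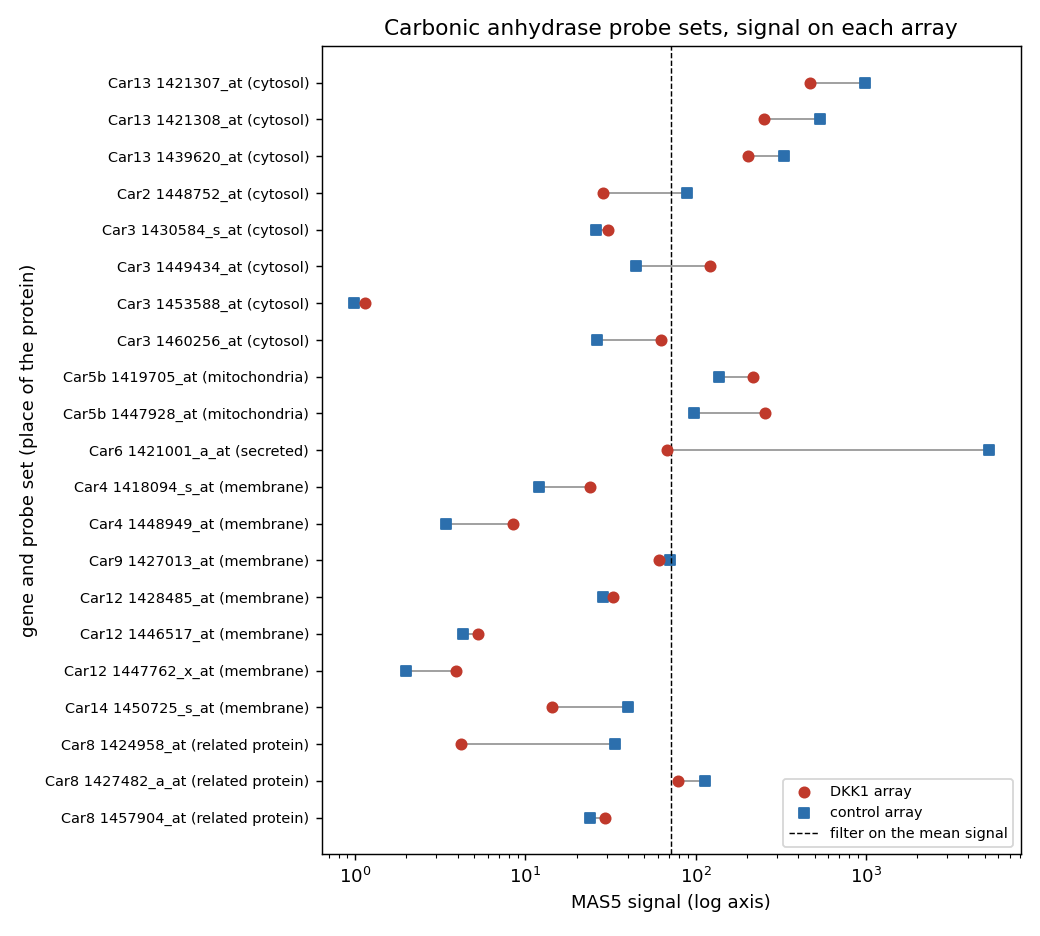
MAS5 signal (log axis) of each of the 21 carbonic anhydrase probe sets on the DKK1 array (circles) and the control array (squares), with a line joining the 2 values and the filter of 71.3 on the mean signal dashed. Car6 spans from 67.9 on the DKK1 array to 5269.6 on the control array, while 12 of the 21 probe sets have both signals below the filter.

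Across the whole series, the median signal of all probe sets was 78.6 on the DKK1 array and 62.6 on the control array, and the median log2 difference of all measured genes was 0.10. Each array had been scaled to the same trimmed mean of 500, so a shift shared by all genes cannot be seen. Spike-in RNAs did not settle the scale. The 18 hybridisation control probe sets had a median log2 ratio of −0.37, and the 20 measured poly-A control probe sets one of 0.64. Scaled on the hybridisation controls the median of all genes was 0.46, and scaled on the poly-A controls it was −0.52. The split of calls over all genes moved with the scale, from 1293 higher and 764 lower as deposited to 2389 and 381 on the hybridisation controls, 472 and 2663 on the poly-A controls, 746 and 1432 with median centring, 968 and 975 with quantile normalization, and 1042 and 912 with loess. No member that was measured changed its sign under any of these scalings.

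Car6, the secreted isoform, was far lower in the DKK1 cells. Its only probe set, 1421001_a_at, had a signal of 67.9 on the DKK1 array, just below the filter, against 5269.6 on the control array. The difference was −5.97 on the log2 scale, and with the DKK1 signal raised to the filter Car6 was at least 73.9-fold lower. It was the second lowest of the 11058 measured genes, after the drug efflux pump gene Abcb1a at −7.34. Under the 11 other processing choices the difference lay between −6.54 and −5.28, and Car6 was called lower in each. Relative to the median of all genes it was −6.09 scaled on hybridisation controls and −6.02 scaled on poly-A controls. Scaling on controls moves every gene by the same factor. Values relative to the median of all genes, here and below, can then change only through the pseudocount and the filter and do not test the scale. The suffix of this probe set marks probes shared by alternative transcripts of a gene, so the secreted and the stress-induced form of Car6 cannot be told apart here.

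**Figure D2:**
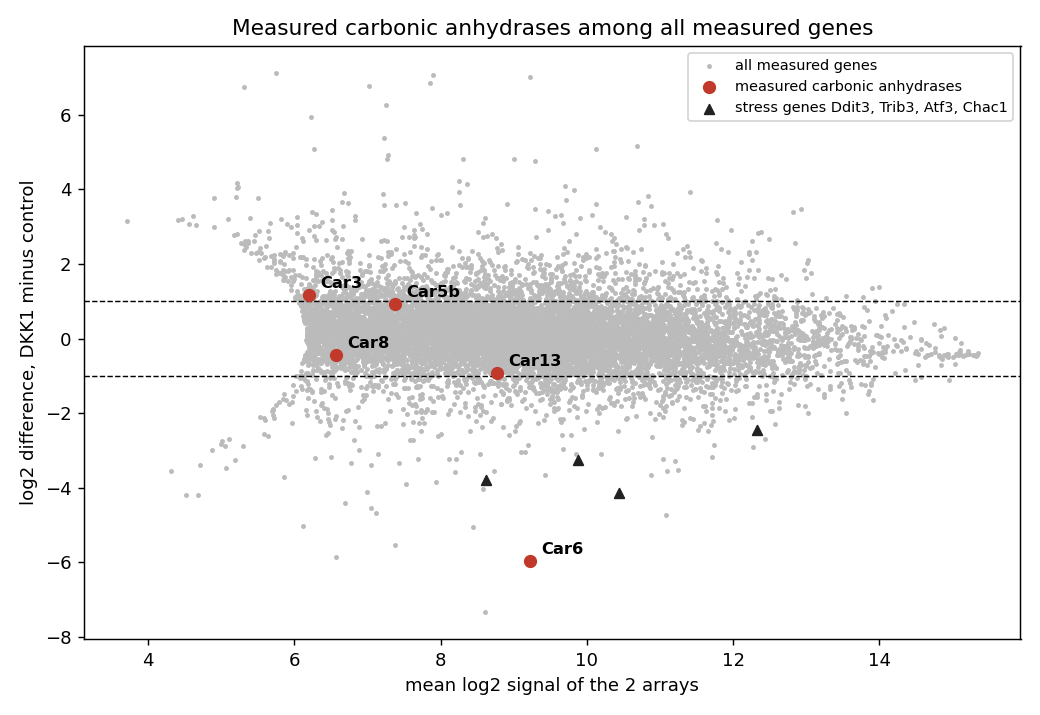
Log2 difference (DKK1 minus control) against the mean log2 signal of both arrays for all 11058 measured genes (grey), the 5 measured carbonic anhydrases (circles) and 4 stress genes (triangles), with dashed lines at 2-fold. Car6 at −5.97 lies far below the other measured carbonic anhydrases, which run from −0.91 to 1.18.

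The genes that control the stress-induced form of Car6 differed in their calls. Ddit3, which encodes CHOP, had signals of 3255 and 98.0 at its 2 probe sets on the DKK1 array, against 31201 and 340.0 on the control array. It was called lower, with a difference of −2.45 (SD 1.14 between the 2 probe sets). Cebpb, which was added for its role and not by the naming rule, was not called, at 0.22 with probe set signals of 13944 and 1679 on the DKK1 array and 13260 and 1301 on the control array. Both probe sets of Ddit3 were more than 2-fold lower, and neither of Cebpb was 2-fold different.

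Of 15 genes of the CHOP, ATF4 and endoplasmic reticulum stress pathways, all measured, 12 were called lower and 0 higher, with a median of −1.39. Among all measured genes 6.91% were called lower. The pseudokinase gene Trib3 was called lower at −4.13 on the log2 scale, with a mean signal of 329 on the DKK1 array and 5863 on the control array. The transcription factor gene Atf3 differed by −3.78 and Chac1, which encodes a glutathione-degrading enzyme, by −3.26. Atf4, the transcription factor gene upstream of these, differed by −1.28. This list was chosen with results of these arrays known, and its count is given only as the setting of Car6. Whether the levels of these genes bear on Car6 was not tested, and 2 arrays cannot show a correlation.

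Among the cytosolic isoforms, Car13 was the one with several measured probe sets. Its probe set 1421307_at had a signal of 473 on the DKK1 array and 991 on the control array. The probe set 1421308_at, annotated to the same transcript record, had 252 on the DKK1 array and 537 on the control array. The third, 1439620_at, had 204 on the DKK1 array and 331 on the control array. All 3 were lower on the DKK1 array, with differences of −1.04, −1.05 and −0.66, and the mean of −0.91 (SD 0.22 between probe sets) was just short of the 2-fold rule. Car13 was called lower under 6 of the 11 other processing choices, with a range of −1.53 to −0.56 over them. Relative to the median of all genes it was −1.02 scaled on hybridisation controls and −1.01 scaled on poly-A controls.

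Car3, a cytosolic isoform with low activity that is abundant in muscle and fat, was the only member called higher. Its 1 measured probe set, 1449434_at, had a signal of 122 on the DKK1 array and 44.6 on the control array, a difference of 1.18. With the control signal raised to the filter, Car3 was at least 1.71-fold higher, which is under the 2-fold rule. A second probe set for the same transcript record, 1460256_at, was below the filter with 63.0 on the DKK1 array and 26.4 on the control array (0.89). The probe sets 1430584_s_at and 1453588_at, which share another record, had 30.6 and 1.15 on the DKK1 array and 26.0 and 0.979 on the control array, so neither showed a clear difference. With all 4 probe sets averaged the difference was 0.56, and the call of Car3 ended under 7 of the 10 other choices that gave it a value. Those ending it included median centring, quantile normalization and loess, at 0.91, 0.90 and 0.91.

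Markers of the tissues in which Car3 is abundant were few on both arrays. Of 6 adipocyte markers 4 had a probe set used here and only Fabp4, a fatty acid binding protein gene, was measured. It was called higher, with signals of 1302 and 1176 at its measured probe sets on the DKK1 array and 613 and 387 on the control array, while Adipoq, Lep and Cidec were below the filter. The brightest probe sets of the 4 summed to 1338 on the DKK1 array and 632 on the control array. Of 7 skeletal muscle markers only the actin gene Acta1 was measured and called higher, with 168 on the DKK1 array and 72.4 on the control array, and the 7 summed to 397 on the DKK1 array and 259 on the control array. Ckm, Myh1, Myh4, Myog, Myod1 and Tnnt3 were below the filter, and no marker was listed at 0. These dim muscle markers did not share a direction. Myog had 8.30 on the DKK1 array and 46.3 on the control array (−1.34), and Tnnt3 had 3.72 and 31.1 (−1.23). The probe sets of each of Ckm, Myh1, Myh4 and Myod1 differed in sign. The part of these markers in the Car3 value was not tested. In bulk RNA, fewer cells of a type and less RNA per cell cannot be told apart.

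Car2, the fast cytosolic enzyme of osteoclasts and red cells, was not measured. Its single probe set 1448752_at had a signal of 28.5 on the DKK1 array and 88.5 on the control array. The mean of 58.5 was below the filter, and the difference was −1.22. Of all probe sets below the filter 6.49% were at least 2-fold lower, so differences of this size occurred among dim probe sets in general. With the DKK1 signal raised to the filter Car2 was at least 1.24-fold lower. Of 10 osteoclast markers 3 were measured and 1 of them, the protease gene Ctsk, was called lower, with 16.0 on the DKK1 array and 674 on the control array. The integrin gene Itgb3 was not called at 0.94, with 181 on the DKK1 array and 86.3 on the control array, and the protease gene Mmp9 was not called at −0.20. The osteoclast enzyme gene Acp5 and the receptor genes Calcr, Oscar and Tnfrsf11a were below the filter, as were Ocstamp, Dcstamp and Atp6v0d2. The brightest probe sets of the list summed to 592 on the DKK1 array and 1287 on the control array, and without Ctsk to 576 on the DKK1 array and 613 on the control array. Their part in the Car2 value was not tested.

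Car13, Car1, Car3 and Car2 lie side by side in this order among the protein-coding genes of mouse chromosome 3. They did not share a direction. Car13 was lower at all 3 probe sets, Car3 was higher at its measured one, Car2 had the lower dim value, and Car1 had 28.5 on the DKK1 array and 36.7 on the control array (−0.24, below the filter).

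Car5b, which serves the bicarbonate supply of mitochondrial enzymes, was higher at both probe sets but not called. The probe set 1447928_at had a signal of 255 on the DKK1 array and 97.2 on the control array (1.25). The probe set 1419705_at had 218 on the DKK1 array and 137 on the control array (0.62). All 4 signals were above the filter. The mean was 0.93 (SD 0.45 between the 2 probe sets), and Car5b was called higher without the pseudocount (1.03) and on the hybridisation controls (1.27), while on the poly-A controls it was 0.35. Relative to the median of all genes, Car5b was 0.81 scaled on hybridisation controls and 0.87 scaled on poly-A controls. Of 7 measured enzymes that consume bicarbonate, none was called and the median was −0.13, which turned to 0.23 on the hybridisation controls. Relative to all measured genes that median was −0.24 as deposited and −0.23 on the hybridisation controls.

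The 4 membrane isoforms gave no measured probe set. Car9 came nearest, with a signal of 61.0 on the DKK1 array and 70.8 on the control array and a mean of 65.9, just under the filter. Its difference was −0.17, and it took either sign under the alternatives, from −0.68 to 0.13. Car12, another hypoxia-linked membrane enzyme, had 32.7, 5.30 and 3.92 at its probe sets on the DKK1 array and 28.5, 4.33 and 1.98 on the control array. Car14 had 14.3 on the DKK1 array and 40.2 on the control array (−0.88). The lipid-anchored Car4 had 24.1 and 8.43 on the DKK1 array and 12.1 and 3.40 on the control array (0.51 and 0.32). The probe sets of Car14, 1450725_s_at, of Car4, 1418094_s_at, and of Car12, 1447762_x_at, carry suffixes for probes that may match further transcripts. All of these signals are below the filter, so differences of these membrane enzymes were not resolved by the arrays.

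Many hypoxia genes were called lower, while the Car9 probe set was dim on both arrays. Of 19 measured hypoxia factors and targets, 9 were called lower and 0 higher, with a median of −0.97. Among all measured genes 6.91% were called lower. The hypoxia list was chosen with results of these arrays known, and its count is given only as the setting of Car9. The glucose transporter gene Slc2a1 was called lower at −1.86, with a mean signal of 1285 on the DKK1 array and 5161 on the control array. The glycolytic gene Pgk1 differed by −1.98 and the growth factor gene Vegfa by −1.20. The oxygen sensor gene Egln3 differed by −2.52, with 30.6, below the filter, on the DKK1 array and 254 on the control array. With the DKK1 signal raised to the filter it was at least 3.57-fold lower. Its other probe set, not measured, had 54.6 on the DKK1 array and 72.7 on the control array (−0.33). Epas1, which encodes HIF-2 alpha, differed by −2.17, and its other probe set, not measured, by −0.90. Hif1a, which encodes HIF-1 alpha, was not called at −0.23, and its protein level is known to be set mainly by degradation. Car9 was too dim to be placed among these genes.

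Car8, the inactive relative, binds the inositol trisphosphate receptor and is best known from Purkinje neurons. Its measured probe set 1427482_a_at had 79.1 on the DKK1 array and 114 on the control array, a difference of −0.45 that was not called under any of the choices that gave a value. The dim probe sets disagreed, with 4.19 on the DKK1 array and 33.4 on the control array at 1424958_at (−1.27) and 29.5 on the DKK1 array and 24.0 on the control array at 1457904_at (0.18). Among related receptor genes Itpr2 was called lower at −1.30, at all 3 of its measured probe sets, and Itpr3 was not called at 0.12. Itpr1 was not analysed here.

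**Figure D3:**
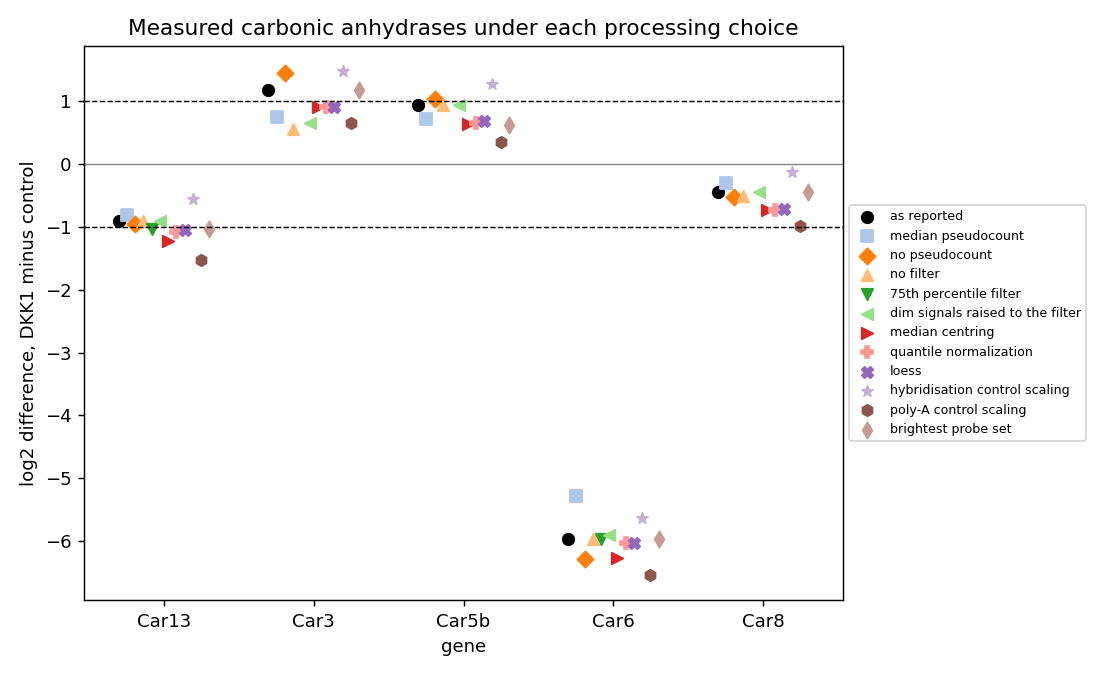
Log2 difference (DKK1 minus control) of the 5 measured carbonic anhydrases as reported (black circles) and under the 11 other processing choices, with dashed lines at 2-fold. Car6 stays between −6.54 and −5.28, while Car3, Car5b and Car13 have points on both sides of a 2-fold line.

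The rest of the family was dim or little different. Of 8 other family genes, which include 2 receptor phosphatases with a carbonic anhydrase-like domain, 3 were measured and none was called. Car11, an inactive relative, had 315 on the DKK1 array and 239 on the control array (0.38). Car10, also inactive, had 114 on the DKK1 array and 83.1 on the control array (0.39) at its measured probe set. Its other, dim probe set had 1.87 on the DKK1 array and 9.13 on the control array (−0.48). Car7, a cytosolic enzyme, had 116 on the DKK1 array and 129 on the control array (−0.14) at 1443824_s_at. That suffix is for probes that may match further transcripts. The other Car7 probe sets were dim, with 9.26 and 6.45 on the DKK1 array and 8.81 and 6.74 on the control array. The probe sets of Car1, Car5a, Car15, Ptprg and Ptprz1 were below the filter. The median of the 3 measured genes was 0.38 and turned to −0.23 scaled on poly-A controls. Relative to the median of all genes it was 0.27 as deposited and 0.29 on the poly-A controls.

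Genes that move bicarbonate and protons are given as a setting for the family, in lists chosen with results of these arrays known. Among all measured genes 11.7% were called higher and 6.91% lower. The list called bicarbonate transporters takes in relatives not known to carry bicarbonate. Of its 8 measured genes, 1 was called higher and 0 lower, with a median of 0.48 that turned to −0.087 scaled on poly-A controls. Against the median of all genes it was 0.38 as deposited and 0.43 on the poly-A controls. The called gene was Slc4a8, a sodium-driven exchanger, through 1 measured probe set of 5. This probe set had 149 on the DKK1 array and 64.4, below the filter, on the control array (1.03). With the control signal raised to the filter Slc4a8 was at least 2.08-fold higher. Another probe set, not measured, went the other way, with 53.6 on the DKK1 array and 77.0 on the control array (−0.42). The remaining, dimmer probe sets of Slc4a8 differed by −0.16, 0.15 and −0.068. The anion exchanger gene Slc4a2 was not called at 0.68. Of 7 measured proton and lactate exporters and their chaperones none was called, and their median of 0.40 took the other sign without the filter and when scaled on poly-A controls. Relative to the median of all genes it was 0.30 as deposited, −0.11 without the filter and 0.032 on the poly-A controls. Of 16 measured genes of the vacuolar proton pump 2 were called lower and 0 higher. Its subunit gene Atp6v1c1 had a mean signal of 2164 on the DKK1 array and 6336 on the control array (−1.45, SD 0.21 between 3 probe sets), and Atp6v1g1 differed by −1.11. The median of the pump genes was −0.24 and turned to 0.13 with the hybridisation controls. Set against the median of all genes, that of the pump was −0.34 as deposited and −0.32 on the hybridisation controls.

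**Figure D4:**
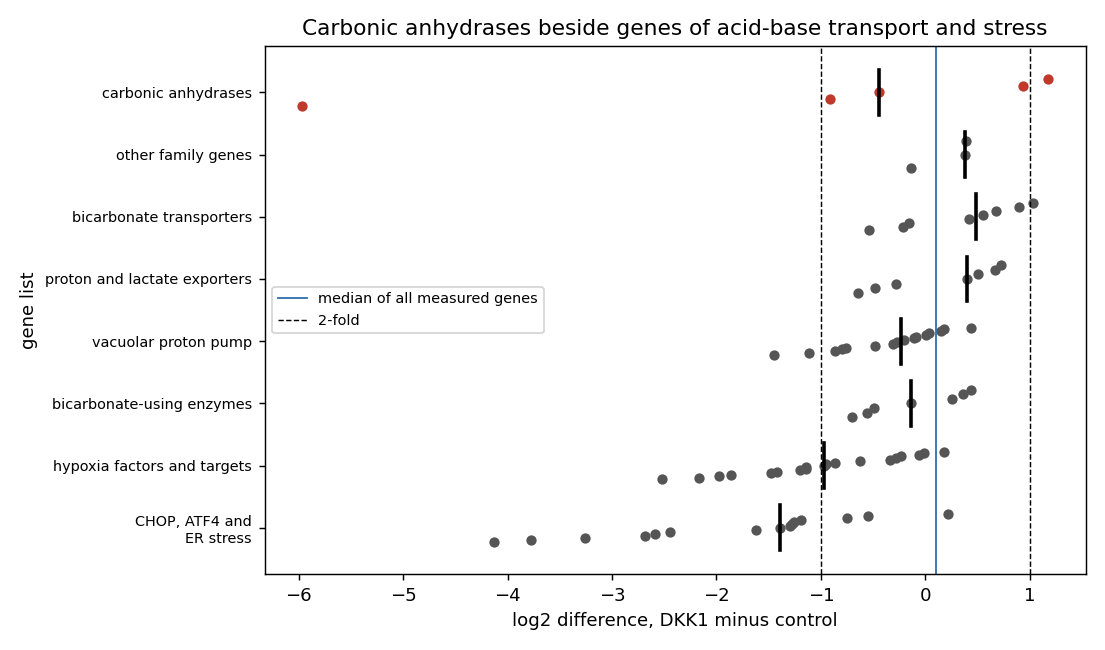
Log2 difference (DKK1 minus control) of each measured gene (points) in 8 gene lists, with the list median as a black bar, the median of all measured genes as a blue line and 2-fold as dashed lines. The stress list has its median at −1.39 and the hypoxia list at −0.97, while Car6 at −5.97 lies below every other point in the plot.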

How the data were processed

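RNA from 1 culture of each group was labelled with biotin from 500 ng of total RNA and hybridised to 1 array, per the labels' protocols. The deposited values are linear intensity values, 1 MAS5 signal per probe set, per the submitters' processing notes; its version and settings and a genome build were not given in the sources used here. Symbols came from the platform annotation, updated by gene ID through RefSeq assembly GRCm38.p6, and 0 member symbols changed. From these values log2 differences were computed with a pseudocount of 16.6, the 25th percentile of all signals, and a filter at a mean signal of 71.3. With 1 array per group no test was run and no p-value is given. The number of arrays limits the precision, and a batch effect cannot be told apart from the group. Member genes were all named. From the other lists the rule named up to 3 called genes with the largest differences, the detected family genes and, whatever their difference, Hif1a, Vegfa, Slc2a1, Egln3, Ddit3, Atf4 and Slc4a2. Of others fixed in this way Slc16a3 was below the filter and Slc4a7 and Itpr1 are not analysed here. The members and lists were chosen with earlier results of these data known. Alternatives varied the pseudocount, filter, dim signals, scaling and gene summary. Calculations used Python 3.11.15, numpy 2.4.6, pandas 2.3.3 and statsmodels 0.14.6, and the calling was tested on simulated data. Of the labelled cell type's 9 osteoblast markers, Sp7, Alpl, Phex and Col1a1 were measured, while Ibsp and Dmp1 were below the filter. Runx2, Bglap and Spp1 had no probe set used here. Phex was measured only through the control array and called lower, with 1.97 on the DKK1 array and 200 on the control array. Sp7 differed by 0.36, Alpl by 0.27 and the Col1a1 probe sets by 0.050 and 1.54, and none of these genes was called.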

Additional observations from a re-analysis of the deposited data

How the results depend on the processing

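Car6 was called lower under all 11 alternatives. The higher call of Car3 (1.18) ended at 0.74 with the median of all signals as pseudocount, 0.56 without the filter, 0.65 with dim signals raised to the filter, 0.91 with median centring over all probe sets, 0.90 with quantile normalization, 0.91 with loess and 0.66 with the poly-A controls. These alternatives by construction shrink dim signals, add dim probe sets or move all genes. The members called higher numbered 1 as reported, 2 without a pseudocount and with the hybridisation controls, and 0 under the 7 alternatives just named and with the 75th percentile filter, which removed Car3. The members called lower numbered 1 as reported and 2 without the filter, with the 75th percentile filter, median centring, quantile normalization, loess, the poly-A controls and the brightest probe set, where Car13 or, without the filter, Car2 joined Car6. Over all measured genes 1293 were called higher, against 711 with the 75th percentile filter, 746 with median centring, 2389 on hybridisation controls and 472 on poly-A controls. Those called lower numbered 764, against 1432 with median centring, 381 on hybridisation controls and 2663 on poly-A controls. The poly-A controls moved the medians of the 7 lists other than the members and the inositol trisphosphate receptors by more than the SD between probe sets of a gene (0.45), and the other alternatives that gave a value did not. The medians were then −0.23 for the other family genes, −0.087 for bicarbonate transporters, −0.49 for proton and lactate exporters, −0.87 for the vacuolar pump, −1.57 for hypoxia genes, −2.03 for stress genes and −0.76 for bicarbonate-using enzymes. The shift taken out of all genes was 0.64 on the poly-A controls, above 0.45, and −0.37 on the hybridisation controls, smaller in size. Passing this cut was thus set by the scale and says nothing about the lists. Relative to the median of all genes, hypoxia genes were −1.07 as deposited and −1.06 on the poly-A controls. The proton and lactate exporters were 0.30 and 0.032. No paired analysis was possible because each group has 1 array. With the 75th percentile filter no other family gene was left. Dim signals limit Car2, Car4, Car9, Car12 and Car14, which rest on probe sets below the filter.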
